A study of Rattus norvegicus with 12 samples.

Results

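The RT1 genes are the rat genes of the major histocompatibility complex, and they were taken here as every gene whose name begins with RT1- in the deposited lung tables. There were 35 of them among 19687 genes listed in at least 1 of the 3 tables, 26 of class I and 9 of class II by their names. All 35 were annotated as protein coding and lay on chromosome 20 between positions 155870 and 7478155 of the build used in the files, whose name is not given in the sources used here. Lung RNA had been sequenced from 12 male Sprague-Dawley rats, an outbred stock, given as 9 weeks old in the labels, with a separate library for each rat. All 12 had received monocrotaline (MCT, 60 mg/kg), a plant toxin that injures lung vessels and raises pulmonary artery pressure, so no group was free of MCT. The groups of 3 rats received PBS vehicle, angiotensin II (AngII, 1 mg/kg/day), TRV023 (10 µg/kg/min) or losartan (10 mg/kg/day) from implanted minipumps. AngII is the natural ligand of the angiotensin II type 1 receptor, TRV023 is a ligand of that receptor biased toward β-arrestin, and losartan blocks it. The pumps of the hemodynamic experiments were started 1 week after MCT and ran for 2 weeks. No separate schedule is given for the rats sequenced. Libraries carry the label names, of group and animal, such as Veh_923 and Ang2_922.

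Class I molecules are carried by most nucleated cells and show peptides from inside the cell to CD8 T cells. They consist of a heavy chain, encoded by genes such as RT1-A2 and the RT1-CE series, and β2-microglobulin (B2m). Class II molecules are carried mainly by dendritic cells, B cells and macrophages, and in rat lung also by alveolar type 2 cells. They consist of an α and a β chain, here RT1-Da with RT1-Db1 and RT1-Ba with RT1-Bb, and show peptides from taken-up material to CD4 T cells. RT1-DMa and RT1-DMb encode the molecule that loads peptide onto class II, and RT1-DOa and RT1-DOb encode its modulator. RT1-Bb was not among the genes analysed here. The RT1 class I genes are numerous, similar in sequence and different in number between rat strains, so reads can be split between near-identical genes and the level of any 1 of them is uncertain to that extent.

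Counted reads per library ranged from 16106337 (Trv_917) to 20096877 (Trv_918), and the RT1 genes took between 0.323% (Los_964) and 0.529% (Ang2_931) of them. The 5 defining lung genes checked were abundant, with a summed level of at least 21093 FPKM in every library (FPKM is a level scaled to gene length and to counted reads). Los_964 stood apart from the other losartan libraries for several class I genes, and the values that rest on it most are also given without it.

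Promoters are shown for 4 genes whose levels are described below: RT1-CE16, which was high in 4 libraries and low in 8, RT1-CE5, another CE gene, which was high in all 12, and the class II α chains RT1-Da and RT1-Ba. Each is the 250 bases before the start of the gene in RefSeq (build GRCr8), read 5′ to 3′ on the gene's strand and matched by symbol, as was possible for 30 of the 35 genes. Capitals mark letters that match the κB site (10 letters), the Y box (CTGATTGG) or the X box (14 letters) on either strand, and the 3 motifs do not overlap in these windows.
RT1-CE16 (chr20:3265444-3265693, minus strand): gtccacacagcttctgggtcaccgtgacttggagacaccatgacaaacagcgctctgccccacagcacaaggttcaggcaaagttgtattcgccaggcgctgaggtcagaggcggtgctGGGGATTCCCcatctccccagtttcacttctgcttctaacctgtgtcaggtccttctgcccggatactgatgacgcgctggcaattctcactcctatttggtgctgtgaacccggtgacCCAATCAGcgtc
RT1-CE5 (chr20:3484091-3484340, minus strand): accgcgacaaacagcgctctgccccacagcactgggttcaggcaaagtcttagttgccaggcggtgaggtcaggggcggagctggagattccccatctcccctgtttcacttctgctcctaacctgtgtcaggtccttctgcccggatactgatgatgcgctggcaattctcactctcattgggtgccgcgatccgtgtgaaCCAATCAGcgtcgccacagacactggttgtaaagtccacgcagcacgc
RT1-Da (chr20:4515165-4515414, plus strand): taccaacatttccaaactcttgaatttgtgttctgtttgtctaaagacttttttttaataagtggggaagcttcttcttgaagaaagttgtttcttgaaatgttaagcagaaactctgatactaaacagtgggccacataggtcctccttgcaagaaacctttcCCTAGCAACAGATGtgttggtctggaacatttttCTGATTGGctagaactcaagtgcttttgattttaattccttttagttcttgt
RT1-Ba (chr20:4576807-4577056, plus strand): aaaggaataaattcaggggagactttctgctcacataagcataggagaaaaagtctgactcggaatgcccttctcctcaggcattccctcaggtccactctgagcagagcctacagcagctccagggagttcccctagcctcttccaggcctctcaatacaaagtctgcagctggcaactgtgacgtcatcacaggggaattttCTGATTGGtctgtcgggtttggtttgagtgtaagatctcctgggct

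The κB letters stood in 5 of 22 class I promoters and in 0 of 8 class II promoters, against 0.102% of all 33469 promoters of the same length. The Y box letters stood in 6 of 8 class II promoters and 6 of 22 class I promoters, against 3.19% of all. The X box letters stood in 2 of 8 class II promoters and 1 of 22 class I promoters, against 0.254% of all. The interferon response element was found in 3 of 22 and 0 of 8 promoters of class I and II (3.41% of all), and the CCAAT letters, which lie within the Y box, in 15 of 22 and 8 of 8 (34.0% of all). In the RT1-CE16 window the κB letters lay 131 to 122 bases before the start, whereas the RT1-CE5 window held no such match. The RT1-A1, RT1-A2, RT1-CE4 and RT1-CE10 windows held the same κB letters. A link between the letters and the levels was not tested. The RT1-Da window held both an X box match, at 86 to 73 bases before the start, and a Y box match, at 52 to 45 bases, and the RT1-Ba window held a Y box match at 46 to 39 bases. These matches describe letters only, and the tables were made from an annotation other than the one the windows came from.

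On the FPKM scale, which is per gene length and so allows levels of different genes to be set side by side, the class II chains RT1-Da and RT1-Db1 were the most abundant RT1 transcripts. RT1-Da lay between 612 and 1318 FPKM over the 12 libraries and RT1-Db1 between 412 and 1068 FPKM, while RT1-Ba, at 134 to 423 FPKM, lay in the range of the class I gene RT1-A2. Among class I genes RT1-A2 was highest (153 to 538 FPKM) except in Los_964, where RT1-CE16 was above it, followed, among genes high in every library, by RT1-CE5 (54.9 to 229 FPKM). The nonclassical class I genes RT1-S3 (96.5 to 164 FPKM) and RT1-T24-4 (96.9 to 137 FPKM) varied least, with a lowest library at 58.8% and 70.7% of the highest. The ranges of RT1-CE5, RT1-S3 and RT1-T24-4 overlapped. Of all 35 genes, 22 reached at least 10 FPKM in some library, 8 reached 1 to 10 FPKM, and 5 (RT1-M1-4, RT1-M5, RT1-M10-1, RT1-O1 and RT1-T18) stayed under 1 FPKM in all 12.

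**Figure D1:**
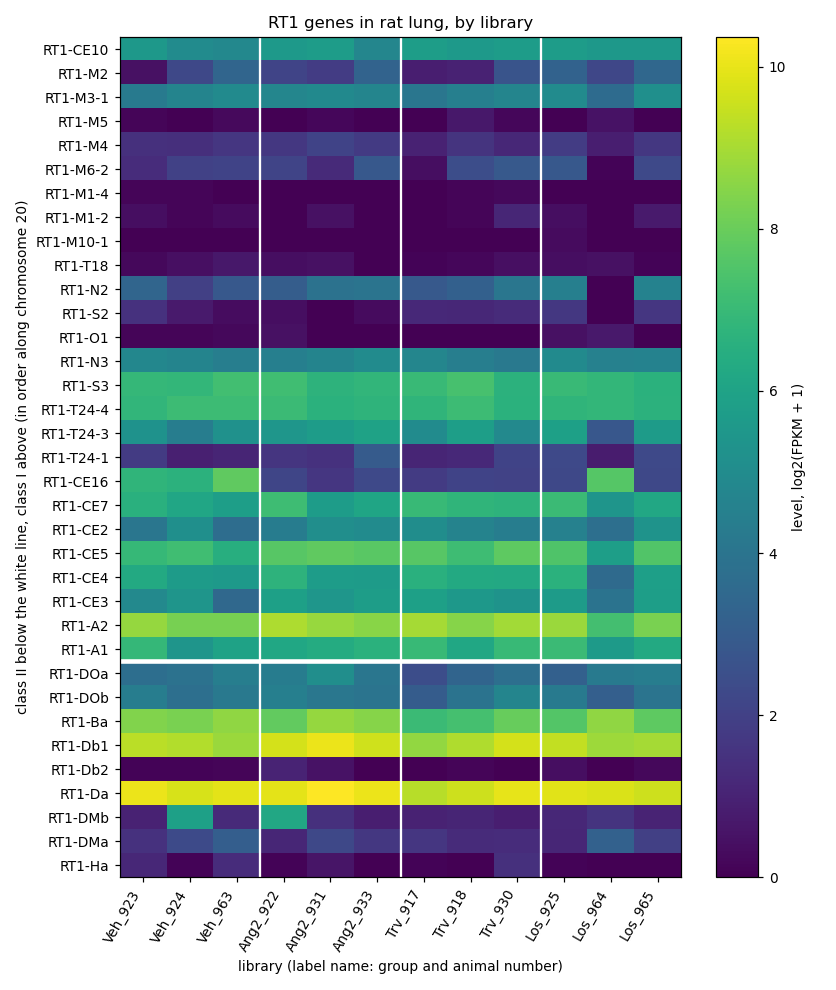
Level of each of the 35 RT1 genes (rows, log2(FPKM + 1) as color) in each of the 12 libraries (columns, by group and animal number), with class I above and class II below the thick white line. RT1-CE16 is bright in the 3 vehicle libraries and Los_964 and dark in the other 8, RT1-DMb is bright only in Veh_924 and Ang2_922, and RT1-N2 is at 0 only in Los_964.

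RT1-CE16, a class I heavy chain gene (chromosome 20, 5857674 to 5878729 in the files), had 4 high libraries and 8 low ones. Its level was 108, 100.2 and 229.5 FPKM in Veh_923, Veh_924 and Veh_963, and 198 FPKM in Los_964. In Ang2_922, Ang2_931 and Ang2_933 it was 3.44, 2.13 and 3.89 FPKM, in Trv_917, Trv_918 and Trv_930 it was 2.54, 3.21 and 3.09 FPKM, and in Los_925 and Los_965 it was 3.76 and 3.73 FPKM. No library lay between 3.89 and 100.2 FPKM, and the 4 high libraries fell into a pair near 100 FPKM and a pair near or above 200 FPKM. The lowest library still held 44 reads of the gene. RT1-CE16 made up between 7.92% and 23.1% of the summed class I FPKM in the 4 high libraries and at most 0.309% in the other 8.

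In edgeR's quasi-likelihood test over all genes of each table, RT1-CE16 was lower with AngII by a log2 fold change of -5.40 (SE 0.402, 95% interval -6.32 to -4.49, adjusted p = 0.00658), in 3 of 3 libraries. With TRV023 it was lower by a log2 fold change of -5.63 (SE 0.382, 95% interval -6.51 to -4.75, edgeR adjusted p = 0.00573), again in 3 of 3 libraries. It was the only RT1 gene past the threshold (adjusted p under 0.05), among 26 RT1 genes tested with AngII and 28 with TRV023, where 0.0133% of 15059 and 0.00658% of 15193 genes passed. The RT1 genes not tested had too few reads for the filter. With losartan its log2 fold change was -0.93 (SE 1.34, edgeR adjusted p = 1.0), and no gene passed in that table (0% of 15156, with 250 genes at an unadjusted p under 0.05 and 6, or 0.0327%, called by DESeq2). Without Los_964 the losartan value was -5.29 (SE 0.476, edgeR adjusted p = 0.163). With the animals numbered in the 960s left out (Veh_963, Los_964 and Los_965) it was -4.84 (edgeR adjusted p = 0.00555), from 1 losartan library assumed to vary like the vehicle ones. The AngII and TRV023 comparisons share the same 3 vehicle libraries, and the doses of the drugs differ. The call was lost without Ang2_931 (adjusted p = 0.115) or Ang2_933 (0.134), and without Trv_917 (0.0703) or Trv_918 (0.112), with edgeR log2 fold changes of -5.20, -5.59, -5.55 and -5.67. A single edgeR fit over the 4 groups gave SEs of 1.32 and 1.34, adjusted p of 0.288 and 0.786, and neither call.

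The 4 libraries high in RT1-CE16 were not those of a single group, and a gene model of the same region showed the same steps in mirror image. AABR06099752.1, an unnamed gene model at 4576104 on chromosome 20, stood at 2.71 and 3.82 FPKM in the pair with most RT1-CE16 (Los_964 and Veh_963). It stood at 15.5 and 19.2 FPKM in the pair near 100 FPKM of RT1-CE16 (Veh_923 and Veh_924) and between 34.8 and 55.7 FPKM in the 8 libraries low in RT1-CE16. Over the 12 libraries, Pearson's r of log2(FPKM + 1) with RT1-CE16 was -0.91, the second largest in size of 15499 genes, and is given as a description. Among the 20 genes with the largest r in size, 4 lay between the RT1 genes on chromosome 20, as did 150 of the 15499 genes compared. The 4 were AABR06099752.1, RT1-CE5 (-0.86), RT1-CE3 (-0.84) and Ly6g5b (-0.84). For RT1-DMb the same count was 0 of 20. Another unnamed model, AABR06099815.1 at 5236559, was high at 23.9, 26.7 and 39.97 FPKM in Veh_924, Veh_963 and Los_964 and between 2.15 and 4.22 FPKM in the other 9. Both models were picked after their values were seen. Animals of an outbred stock can carry different RT1 haplotypes. The haplotype of each animal was not analysed here, and its part in the RT1-CE16 result was not tested.

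**Figure D2:**
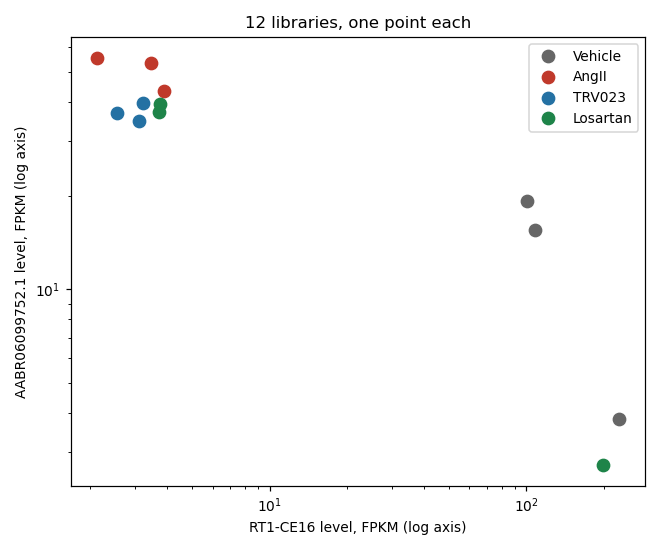
RT1-CE16 (horizontal, FPKM, log axis) against AABR06099752.1 (vertical, FPKM, log axis), with 1 point for each of the 12 libraries, colored by group. The 8 points at the upper left hold all AngII and TRV023 libraries and 2 losartan libraries, and the 4 points at the right hold the 3 vehicle libraries and Los_964 (198 and 2.71 FPKM).

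Low levels confined to some libraries were counted over all RT1 genes, as genes with a highest library of at least 1 FPKM and 1 to 11 libraries under 1/10 of it. That held for 10 of the 30 RT1 genes that reached 1 FPKM, 7 of 21 in class I and 3 of 9 in class II, against 14% of all 15500 genes that did. Among genes that reached 10 FPKM it held for 5 of 22 RT1 genes (RT1-CE16, RT1-DMb, RT1-N2, RT1-T24-3 and RT1-M2) against 4.17% of 9089 genes. Closest to the limit inside was RT1-T24-3, whose lowest library was at 9.60% of its highest, and closest outside were RT1-T24-1 (10.3%) and RT1-CE4 (10.6%). Los_964 was low for 8 of the 10 genes and Trv_917 for 7, whereas the other libraries were low for 1 to 6. Of all 2167 genes that met the description, 828 were low in Los_964 and 675 in Trv_917. The counts over all genes were highest for Ang2_933 (1032) and Ang2_931 (984). Of the 145 listed genes other than RT1 that lie between the RT1 genes, 121 reached 1 FPKM and 20 of those (16.5%) met the same description, among them Ubd, Trim10, Trim15, Lta, Slc44a4, Pou5f1 and Ly6g5b.

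RT1-N2, a nonclassical class I gene, was at 0 reads in Los_964 and at 21.2 and 23.5 FPKM in Los_925 and Los_965, its highest libraries. It was at 9.29, 2.91 and 6.30 FPKM in the vehicle libraries, at 7.41, 14.0 and 14.8 FPKM with AngII and at 6.47, 7.98 and 15.7 FPKM with TRV023. Los_964 was thus its single low library, and a count of 0 allows up to 3 reads, against 78 reads in the next lowest library (Veh_924). RT1-T24-3, also a nonclassical class I gene, was low in the same library alone. It was at 37.9, 19.95 and 37.1 FPKM with vehicle, 42.3, 52.5 and 61.9 FPKM with AngII, 31.2, 54.9 and 28.5 FPKM with TRV023, and 58.8, 5.94 and 50.6 FPKM with losartan. All AngII libraries lay above all vehicle libraries (log2 fold change 0.86, SE 0.260, edgeR adjusted p = 0.354). A pattern of a single low library in Los_964 was shown by 92 genes in all, RT1-N2 and RT1-T24-3 included, and single low libraries numbered between 12 (Veh_963) and 197 (Ang2_931) genes elsewhere. The most abundant of the named genes with the pattern of RT1-N2 were Fcrl2 on chromosome 2 and Ahsp on chromosome 1. With losartan the log2 fold change of RT1-N2 was 1.27 (SE 1.21, edgeR adjusted p = 1.0), and 1.85 without Los_964 (SE 0.423, edgeR adjusted p = 1.0). With AngII it was 1.12 (SE 0.436, edgeR adjusted p = 0.391).

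Other low patterns among class I genes each had their own set of libraries. RT1-M6-2 was at 1.505, 3.01 and 3.24 FPKM with vehicle, 3.42, 1.34 and 6.15 FPKM with AngII, 0.311, 4.43 and 6.51 FPKM with TRV023, and 6.17, 0.0582 and 3.90 FPKM with losartan. Its low libraries were Trv_917 and Los_964, and Mcpt2, a mast cell protease gene on chromosome 15, was low in the same libraries. RT1-M2 was at 0.387, 3.76 and 9.38 FPKM with vehicle, 3.40, 2.58 and 8.85 FPKM with AngII, 0.840, 0.962 and 5.46 FPKM with TRV023, and 8.69, 3.65 and 10.2 FPKM with losartan. It was low in Veh_923, Trv_917 and Trv_918, and Ppbp, a platelet chemokine gene on chromosome 14, shared its low libraries. RT1-S2 was at 1.79, 0.684 and 0.281 FPKM with vehicle, 0.302, 0 and 0.218 FPKM with AngII, 1.29, 1.22 and 1.40 FPKM with TRV023, and 2.19, 0 and 2.13 FPKM with losartan, and was low in Ang2_931, Ang2_933 and Los_964. The steps of RT1-S2 rested on few reads, at most 23 in any library, 0 to 2 in the low ones and 3 in Veh_963 and Ang2_922, which counted as not low. Named genes that matched it in 11 of 12 libraries were led by Fgfbp1 on chromosome 14 and Fam216b on chromosome 15. RT1-CE16 had Aspn (chromosome 17) and Fam131a (chromosome 11) as its named matches in 11 of 12 libraries. RT1-M1-2 stayed at or under 1.14 FPKM, and in class II RT1-Db2 (at most 1.05 FPKM) and RT1-Ha (at most 1.67 FPKM) were as low, so that their steps rested on few reads: RT1-Ha had 24 reads in its highest library.

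The abundant class I heavy chain genes of the A and CE series other than RT1-CE16 had log2 fold changes above 0 with AngII and with TRV023, none of them past the edgeR threshold. RT1-CE5 was at 122, 145 and 88.3 FPKM in the vehicle libraries, 202, 229 and 209 FPKM with AngII, 205, 141 and 218 FPKM with TRV023, and 179.7, 54.9 and 189 FPKM with losartan. All 3 AngII libraries lay above all vehicle libraries, as was so for 4.95% of all genes tested. The log2 fold change of RT1-CE5 was 0.98 with AngII (SE 0.187, edgeR adjusted p = 0.295, DESeq2 adjusted p = 0.000359), and DESeq2 called 1.24% of genes in that table. It was 0.67 with TRV023 (SE 0.233, edgeR adjusted p = 0.766) and 0.27 with losartan (SE 0.392, edgeR adjusted p = 1.0), where it was 0.63 without Los_964 (SE 0.217, edgeR adjusted p = 1.0). RT1-CE5 was therefore called by 1 of the 2 count tools, and only with AngII.

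RT1-A2, the most abundant class I gene, was at 420.5, 301 and 299.7 FPKM in the vehicle libraries. With AngII it was at 538, 438 and 364 FPKM, with TRV023 at 498, 362 and 488 FPKM, and with losartan at 445, 153 and 313 FPKM. The AngII and vehicle libraries overlapped (log2 fold change 0.52, SE 0.184, edgeR adjusted p = 0.372). RT1-A1, next to it on the chromosome, was at 118, 41.8 and 61.9 FPKM with vehicle, 70.6, 82.4 and 96.2 FPKM with AngII, 124, 71.6 and 124 FPKM with TRV023, and 134, 49.5 and 78.5 FPKM with losartan. No group of RT1-A1 stood apart from the others. RT1-CE3 was at 28.6, 41.2 and 10.4 FPKM in the vehicle libraries and at 59.0, 43.2 and 53.6 FPKM with AngII, without overlap (log2 fold change 1.09, SE 0.400, edgeR adjusted p = 0.377). With TRV023 it was at 57.6, 44.8 and 38.9 FPKM, with Trv_930 below the highest vehicle library, and with losartan at 51.0, 14.2 and 55.5 FPKM.

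RT1-CE7 was at 93.8, 69.3 and 55.9 FPKM in the vehicle libraries and at 126, 109.5 and 104 FPKM with TRV023, without overlap (log2 fold change 0.64, SE 0.194, edgeR adjusted p = 0.696). With AngII it was at 141, 51.9 and 68.0 FPKM and with losartan at 132, 41.0 and 72.3 FPKM, so that 1 library of each of these groups was below all vehicle libraries. RT1-CE10 was at 45.4, 30.8 and 27.8 FPKM in the vehicle libraries, at 54.1, 45.9 and 52.8 FPKM with TRV023 and at 52.6, 45.2 and 44.8 FPKM with losartan. Its log2 fold change was 0.56 with TRV023 (SE 0.195, edgeR adjusted p = 0.766) and 0.51 with losartan (SE 0.196, edgeR adjusted p = 1.0). With AngII RT1-CE10 was at 46.9, 51.8 and 26.1 FPKM, a spread that took in the vehicle libraries.

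RT1-CE4 was at 77.8, 50.9 and 46.1 FPKM in the vehicle libraries, 104, 52.4 and 50.7 FPKM with AngII, 93.6, 76.9 and 74.6 FPKM with TRV023, and 97.4, 11.01 and 57.5 FPKM with losartan. Its groups overlapped vehicle in every comparison, and RT1-CE4 had a log2 fold change of 0.49 with TRV023 (SE 0.209, edgeR adjusted p = 0.881). RT1-CE2 was at 15.6, 34.6 and 12.01 FPKM with vehicle, 19.5, 34.1 and 31.01 FPKM with AngII, 32.6, 23.7 and 20.2 FPKM with TRV023, and 22.4, 12.7 and 39.1 FPKM with losartan, with every group overlapping vehicle. Los_964 held the lowest value of the 12 libraries for 7 of the 16 class I genes that reached 10 FPKM, among them RT1-A2, RT1-CE4, RT1-CE5 and RT1-CE7, while RT1-CE16 was near its highest there. Its summed class I level was 857 FPKM, or 658 FPKM without RT1-CE16, against 1150.3 to 1570.3 FPKM, or 999 to 1567 FPKM, in the other 11 libraries. The class II sum of Los_964 (1769 FPKM) lay inside the range of the other libraries.

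Of the nonclassical class I genes outside the low patterns, none reached an unadjusted p under 0.05. RT1-S3 had log2 fold changes of 0.03, 0.03 and -0.13 with AngII, TRV023 and losartan, and RT1-T24-4 of -0.08, -0.17 and -0.19. RT1-N3 (17.5 to 30.8 FPKM) had 0.22, -0.17 and 0.12 in the same order, and RT1-M3-1 (11.3 to 34.8 FPKM) had 0.27, -0.23 and 0.10. RT1-M3-1, whose relative in the mouse presents formylated peptides, was lowest in Los_964. RT1-T24-1 (0.714 to 6.96 FPKM) and RT1-M4 (0.827 to 3.20 FPKM, with all AngII libraries above vehicle, log2 fold change 0.65, SE 0.424) were lowest in Los_964 as well. The 5 genes under 1 FPKM had at most 18 reads in any library, and RT1-M10-1 had 4 reads in Los_925 and 0 in the other 11. RT1-M10-1 was not listed for AngII or TRV023, where the 0 was assumed.

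**Figure D3:**
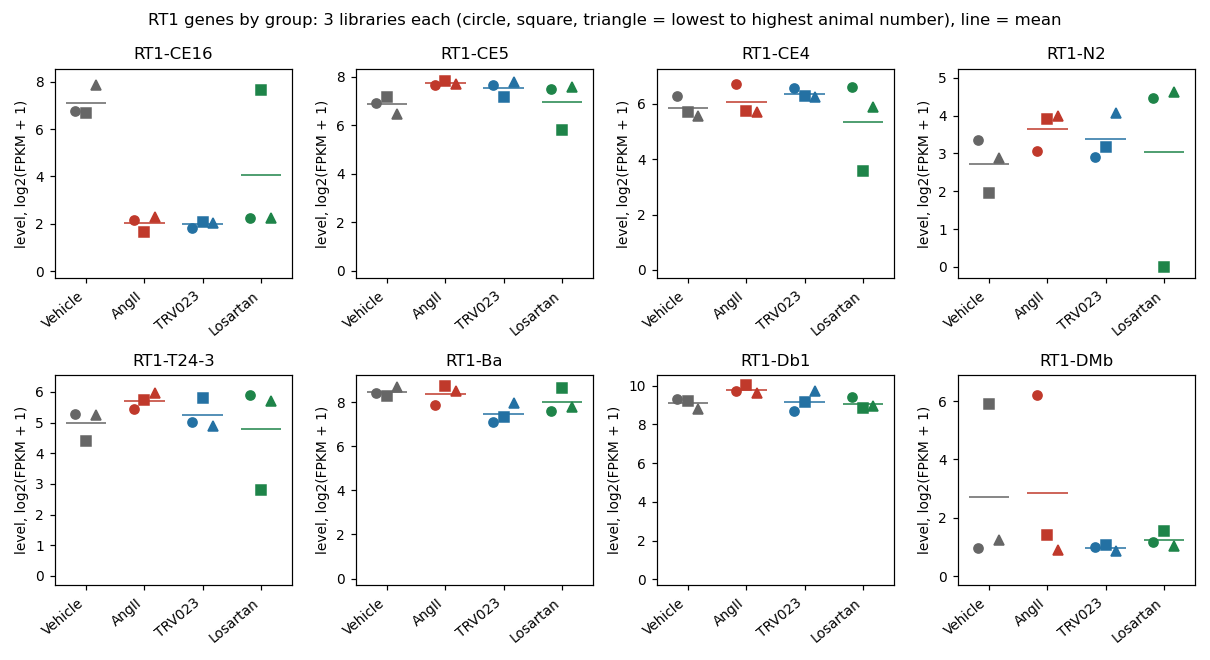
Level (log2(FPKM + 1)) of 8 RT1 genes by group, with each of the 3 libraries as a point (circle, square and triangle from the lowest to the highest animal number) and the group mean of the log values as a line. The 3 AngII and 3 TRV023 points of RT1-CE16 lie far below the vehicle points, all TRV023 points of RT1-Ba lie below the vehicle points, and the losartan square (Los_964) stands apart for RT1-CE16, RT1-CE5, RT1-CE4, RT1-N2 and RT1-T24-3.

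In class II, RT1-Ba was lowest with TRV023 and RT1-Db1 was highest with AngII. RT1-Ba, the α chain of the RT1-B molecule, was at 339, 309 and 405 FPKM in the vehicle libraries and at 134, 157 and 251 FPKM in Trv_917, Trv_918 and Trv_930, all 3 below the vehicle libraries, as was so for 5.23% of all genes tested. Its log2 fold change was -0.96 (SE 0.239, edgeR adjusted p = 0.578, DESeq2 adjusted p = 0.0147), and DESeq2 called 0.672% of genes in that table. With AngII RT1-Ba was at 233, 423 and 357 FPKM and with losartan at 193, 402 and 219 FPKM, both overlapping vehicle. The high losartan library was Los_964, without which the losartan log2 fold change of RT1-Ba was -0.77 (SE 0.185, edgeR adjusted p = 1.0) in place of -0.29. In bulk tissue, fewer cells of a type and less RNA per cell cannot be told apart.

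RT1-Db1, the β chain of the RT1-D molecule, was at 632, 583 and 450.0 FPKM in the vehicle libraries and at 837, 1068 and 788 FPKM with AngII, without overlap. The log2 fold change was 0.83 (SE 0.188, edgeR adjusted p = 0.295, DESeq2 adjusted p = 0.00328). With TRV023 it was at 412, 566 and 836 FPKM and with losartan at 677, 464 and 498 FPKM. Its partner RT1-Da overlapped in every comparison, at 1063, 853 and 983 FPKM with vehicle, 992, 1318 and 1075 FPKM with AngII, 612, 752 and 1009.7 FPKM with TRV023 and 963.8, 867 and 766 FPKM with losartan. LOC688090, an unnamed model between RT1-DOb and RT1-Ba that was picked after its values were seen, ranged from 153 to 412 FPKM. All 3 AngII libraries of LOC688090 lay above all vehicle libraries, as was so for 4.95% of all genes tested (log2 fold change 0.53, SE 0.161, edgeR adjusted p = 0.356). Its name does not begin with RT1-, so it was not part of the class II values.

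Class II transcripts relative to class I were lowest in the TRV023 group. The class II sum divided by the class I sum was 1.52 to 1.60 in the vehicle libraries, 1.39, 2.18 and 1.77 in Ang2_922, Ang2_931 and Ang2_933, and 0.773, 1.16 and 1.498 in Trv_917, Trv_918 and Trv_930. With losartan it was 1.23, 2.06 and 1.26 in Los_925, Los_964 and Los_965. Each TRV023 library was below each vehicle library, by little for Trv_930. So were Los_925 and Los_965, but not Los_964, without which the mean losartan ratio was 1.245 (n = 2). The class II sum itself was 1930.5 ± 123 FPKM with vehicle, 2432 ± 377 FPKM with AngII, 1605 ± 491 FPKM with TRV023 and 1718 ± 176 FPKM with losartan (SD, n = 3), and the class I sum was 1247 ± 106, 1387 ± 159.8, 1413 ± 112 and 1194 ± 332 FPKM in the same order. Without Los_964 the mean class I sum with losartan was 1362 FPKM and the mean class II sum 1693 FPKM (n = 2).

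Among the genes for peptide loading, RT1-DMb had only 2 high libraries, Veh_924 at 59.0 FPKM and Ang2_922 at 72.9 FPKM, and lay between 0.825 and 1.94 FPKM in the other 10. Its edgeR log2 fold changes followed those 2 libraries: 0.37 with AngII (SE 1.68), -4.37 with TRV023 (SE 1.502, adjusted p = 0.761) and -3.79 with losartan (SE 1.48, adjusted p = 1.0). Without Veh_924 the TRV023 value was -0.23 and the losartan value 0.35, and without Ang2_922 the AngII value was -3.80. The files hold a second model, LOC100909630, at 6025149 with the same gene length as RT1-DMb, 1292 bases. It was high in 3 other libraries, Veh_923 (23.7 FPKM), Ang2_933 (27.4 FPKM) and Los_964 (24.6 FPKM), and lay between 0.701 and 2.08 FPKM elsewhere. No library was high for both, so that 5 of 12 libraries were high for 1 of them and none of these was a TRV023 library. Veh_963, Ang2_931, Los_925 and Los_965 were low for both as well.

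RT1-DMa likewise shares its length of 1087 bases with a model, LOC100909593. RT1-DMa was at 1.80, 3.96 and 7.51 FPKM with vehicle, 1.18, 3.78 and 2.19 FPKM with AngII, 2.11, 1.42 and 1.52 FPKM with TRV023, and 1.16, 8.29 and 2.88 FPKM with losartan. It was highest in Los_964 and Veh_963, and its log2 fold change with TRV023 was -1.39 (SE 0.533, edgeR adjusted p = 0.822), or -0.77 without Veh_963. LOC100909593 reached 29.2 FPKM in Ang2_931 and 11.7 FPKM in Los_925, which were not the high libraries of RT1-DMa. Equal length alone does not mark a copy, since RT1-CE10 has the length of the unrelated Psmb8, and the levels of the RT1-DM genes are uncertain because reads may be split between the models. These models were picked after their values were seen. With the reads of each pair summed, the TRV023 log2 fold change was -3.90 for RT1-DMb (SE 0.873, edgeR adjusted p = 0.483) and -1.44 for RT1-DMa (SE 0.585, edgeR adjusted p = 0.852). The summed RT1-DMb level was 24.6, 59.9 and 3.43 FPKM with vehicle and 2.16, 2.20 and 1.53 FPKM with TRV023. With AngII it was 73.9, 3.55 and 28.3 FPKM and with losartan 2.11, 26.6 and 2.62 FPKM. The summed RT1-DMb log2 fold change was 0.36 with AngII (SE 1.02) and -1.35 with losartan (SE 1.16).

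**Figure D4:**
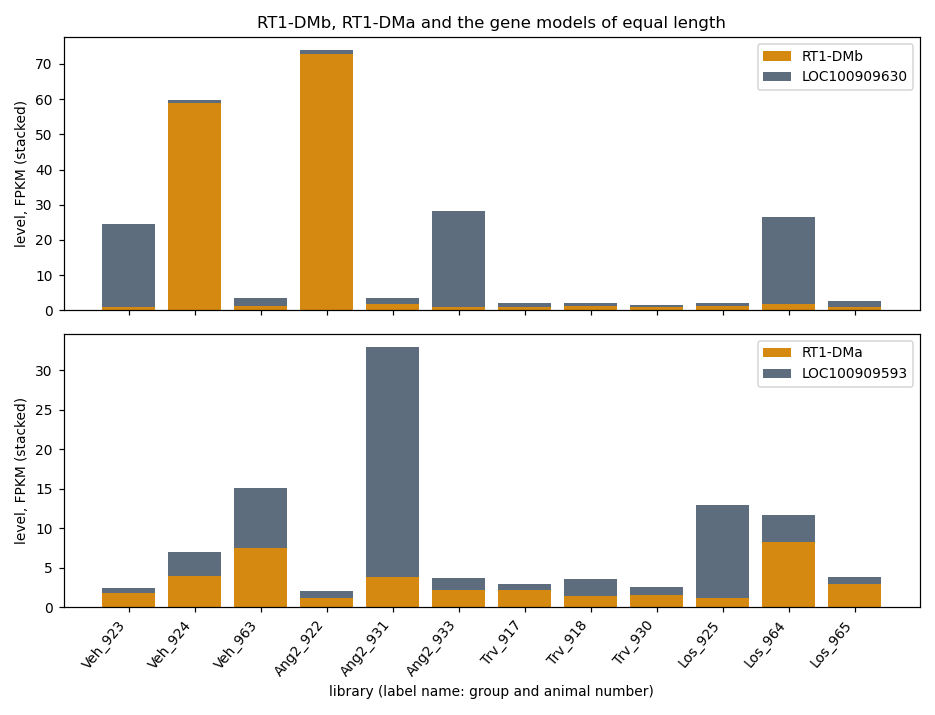
Stacked bars of the level (FPKM) in each of the 12 libraries of RT1-DMb with LOC100909630 (top) and of RT1-DMa with LOC100909593 (bottom). For RT1-DMb, 2 libraries are high in the named gene and 3 others in the model of equal length. The TRV023 libraries are low in both, as are Veh_963, Ang2_931, Los_925 and Los_965.

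The modulator genes varied with no group apart from vehicle. RT1-DOa was at 12.5, 14.2 and 20.7 FPKM in the vehicle libraries and at 4.51, 9.11 and 12.6 FPKM with TRV023, where only Trv_930 reached the vehicle range (log2 fold change -0.85, SE 0.365, edgeR adjusted p = 0.881), and at 19.6, 33.5 and 15.7 FPKM with AngII and 8.13, 18.1 and 19.97 FPKM with losartan. RT1-DOb was at 20.2, 12.9 and 17.2 FPKM with vehicle, 21.3, 16.3 and 14.7 FPKM with AngII, 7.20, 14.4 and 25.6 FPKM with TRV023, and 18.4, 7.88 and 14.98 FPKM with losartan. The lowest and the highest RT1-DOb value were both in the TRV023 group.

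Counted over all RT1 genes tested, AngII had the most values above 0. Under edgeR with AngII, 23 of 26 log2 fold changes were above 0, 17 of 19 in class I and 6 of 7 in class II, with medians of 0.40 and 0.36, whereas 47.4% of all genes tested were above 0 with a median of -0.02. An unadjusted edgeR p under 0.05 was reached by 6 RT1 genes in the higher direction (6.54% of all genes) and by 1 in the lower direction (5.39%). All 3 AngII libraries were above all vehicle libraries for 5 RT1 genes (RT1-CE5, RT1-Db1, RT1-T24-3, RT1-CE3 and RT1-M4) and below for RT1-CE16, beside 4.95% and 16.5% of all genes. Without Veh_924 the class II median was 0.15. Scaling by library totals moved the median of all genes to -0.16 and the class medians to 0.26 and 0.22. With TRV023 the medians of the classes differed in sign, 14 of 20 class I values being above 0 (median 0.38) and 7 of 8 class II values below 0 (median -0.76), beside 49.7% of all genes tested above 0. The class II median ranged from -1.25 without Trv_930 to -0.36 without Trv_917. There, 4 RT1 genes, all of class I, reached an unadjusted p under 0.05 in the higher direction (2.61% of all genes) and 5, of which 4 were of class II, in the lower direction (2.96%). No overlap with vehicle was seen for RT1-CE7 and RT1-CE10 above (4.99% of all genes) and for RT1-CE16 and RT1-Ba below (5.23%). With losartan 15 of 21 class I values were above 0 (median 0.25) and 4 of 7 class II values below 0 (median -0.11), beside 51.3% of all genes tested above 0. An unadjusted p under 0.05 with losartan was reached by RT1-CE10 in the higher direction (0.686% of all genes) and RT1-DMb in the lower (0.963%). The losartan class I median was -0.10 without Los_925 and 0.48 without Los_964. The class II median was -0.47 without Los_964, in a fit that also tested RT1-Ha (-4.53), which had at most 24 reads in any library. Over the 7 class II genes of the main losartan fit, the median without Los_964 was -0.17, the value of RT1-Da. No RT1 gene had all losartan libraries above or below all vehicle libraries, as 1.96% and 3.62% of all genes did. These unadjusted counts describe the tables, and the genes of each class are not independent of each other.

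**Figure D5:**
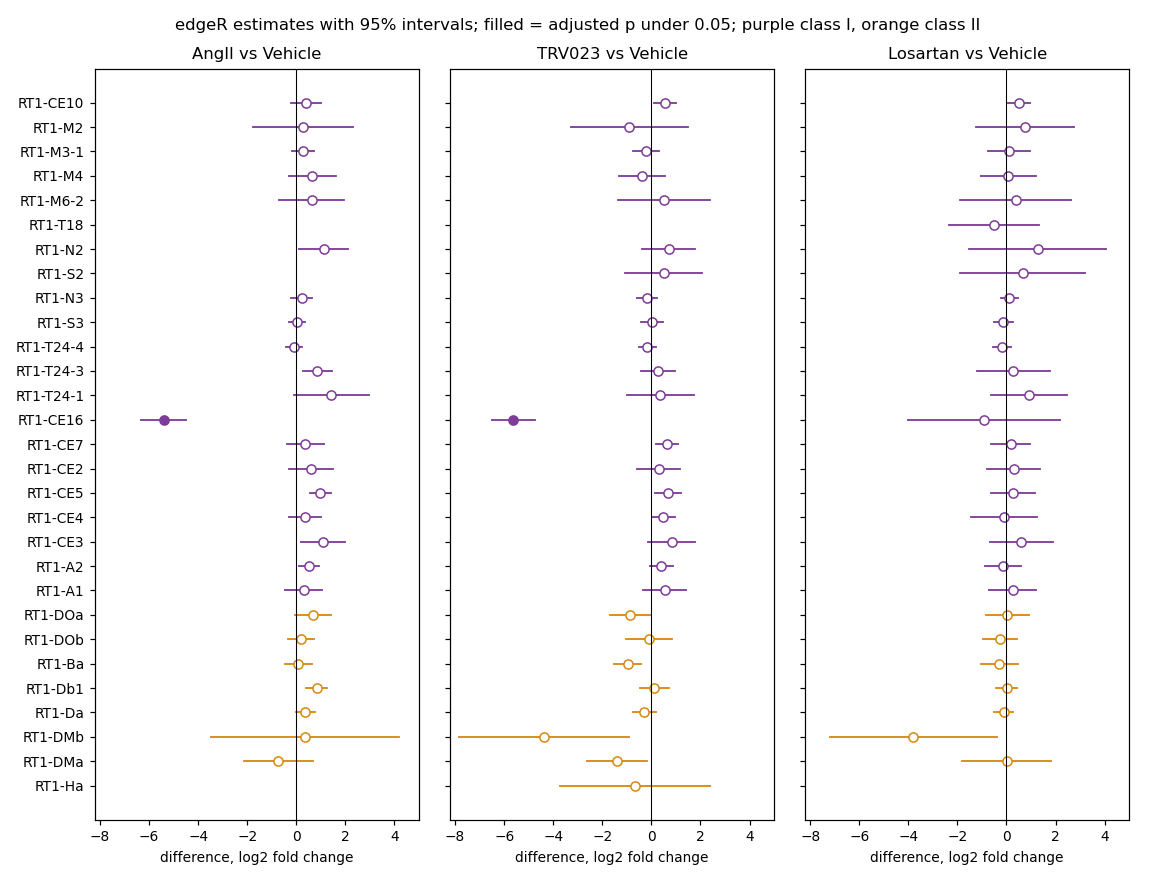
edgeR log2 fold change (point) and 95% interval (line) of each tested RT1 gene in each comparison with vehicle, purple for class I and orange for class II, with filled points at an adjusted p under 0.05. The filled points are RT1-CE16 with AngII (-5.40) and TRV023 (-5.63).

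Partners and regulators of antigen presentation were described from a list of 38 gene models, of which 37 were tested in each comparison and 0 passed an edgeR adjusted p of 0.05. With AngII 8 of 37 had an unadjusted p under 0.05 in the higher direction and 1 (Erap1, a peptide trimming enzyme) in the lower, beside 6.54% and 5.39% of all genes. With TRV023 it was 5 and 0, beside 2.61% and 2.96%, and with losartan 1 and 0, beside 0.686% and 0.963%. DESeq2 called 1, 0 and 0 of them, beside 1.24%, 0.672% and 0.0327% of all genes. Both models of Tap2, which lie between RT1 genes on chromosome 20, are counted in the 8 with AngII and the 5 with TRV023. Psmb9, an immunoproteasome subunit, was at 68.6, 71.4 and 66.5 FPKM with vehicle and 96.1, 90.9 and 84.8 FPKM with AngII (log2 fold change 0.53, SE 0.110, edgeR adjusted p = 0.295). Tap1, a subunit of the peptide transporter, was at 36.5, 36.5 and 30.0 FPKM with vehicle and 42.9, 40.9 and 38.1 FPKM with AngII (log2 fold change 0.38, SE 0.122, edgeR adjusted p = 0.372). Its partner Tap2 is listed as 2 models. The model at 7259451 was above all vehicle libraries with each drug, and these comparisons share the same 3 vehicle libraries. Its log2 fold changes were 0.55, 0.43 and 0.74, with edgeR adjusted p of 0.372, 0.787 and 1.0 for AngII, TRV023 and losartan. All drug libraries lay above all vehicle libraries for 4, 5 and 1 of the 37 in the same order (4.95%, 4.99% and 1.96% of all genes). All lay below for 4, 1 and 0 (16.5%, 5.23% and 3.62%). The model at 6075092 was above all vehicle libraries with AngII and TRV023 and overlapped them with losartan. Its log2 fold changes were 0.83, 1.33 and 0.66 in the same order, with edgeR adjusted p of 0.399 for AngII and 0.723 for TRV023.

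Cd74, the invariant chain that escorts class II molecules, was at 2995, 2380.1 and 2719 FPKM with vehicle, 2941, 3558 and 3274 FPKM with AngII and 1676, 2234 and 2715 FPKM with TRV023. B2m, shared by all class I molecules, spanned 1307 to 1660.0 FPKM over the 12 libraries, a narrower relative range than any heavy chain gene of the A and CE series. Ciita, the class II transactivator, was lowest in Trv_917 (3.28 FPKM), the library with the lowest RT1-Da, RT1-Db1, RT1-Ba, RT1-DOa, RT1-DOb and Cd74. Psmb8 spanned 30.3 to 63.1 FPKM, Tapbp 53.3 to 84.7 FPKM, and Nlrc5, the class I transactivator, 1.26 to 3.58 FPKM. Lgmn, a lysosomal protease of the class II pathway, was at 309, 227 and 203 FPKM with vehicle, 337, 361 and 274 FPKM with AngII and 374, 315 and 327 FPKM with TRV023 (log2 fold changes 0.53 and 0.46, edgeR adjusted p = 0.372 and 0.844). Rfxank, a subunit of the factor that binds the X box, was at 10.9, 7.63 and 8.71 FPKM with vehicle and 13.01, 12.7 and 12.7 FPKM with TRV023. These did not overlap, as was so for 4.99% of all genes in that direction (log2 fold change 0.49, SE 0.188, edgeR adjusted p = 0.822). With losartan the smallest p after the Tap2 models belonged to Hfe (-0.28), a class I-like gene of iron uptake, and Psmb8 (-0.24). Ifng, the main known inducer of both classes, was at or under 0.609 FPKM in all 12 libraries.

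Markers of cells that carry class II were read beside these values. The summed level of 8 B cell markers was 32.1 to 70.9 FPKM with vehicle, 48.3 to 84.8 FPKM with AngII, 13.3 to 41.2 FPKM with TRV023 and 19.3 to 51.1 FPKM with losartan, with Cd79a, a defining marker, at or under 0.143 FPKM throughout. With TRV023 7 of 7 tested B cell markers and 7 of 7 tested dendritic cell markers had log2 fold changes below 0, none at an unadjusted p under 0.05, and medians of -0.66 and -0.35. With AngII 7 of 7 tested B cell markers and 7 of 8 tested T and NK cell markers were above 0, with medians of 0.47 and 0.40. There, 5 of 7 tested dendritic cell markers were below 0 (median -0.19). With losartan 7 of 7 tested B cell, 6 of 7 dendritic cell and 7 of 8 T and NK cell markers were below 0. Their losartan medians were -0.50, -0.32 and -0.28, with none lower at an unadjusted p under 0.05. Dendritic cell markers summed to 77.7 to 80.9 FPKM with vehicle, 71.8 to 79.3 FPKM with AngII, 50.1 to 78.1 FPKM with TRV023 and 48.2 to 76.4 FPKM with losartan. Cd209a was set to 0 in the AngII and losartan groups and Siglech in the TRV023 group, where they were not listed. The 6 listed macrophage markers summed to 388 to 679 FPKM with vehicle, 626 to 703 FPKM with AngII, 443 to 569 FPKM with TRV023 and 301 to 684 FPKM with losartan. Macrophage markers with log2 fold changes above 0 were 3 of 5 tested with AngII (median 0.51). They were 4 of 5 with TRV023 (median 0.18) and 5 of 6 with losartan (median 0.08). Alveolar type 2 markers summed to 10053 to 22887 FPKM with vehicle, 16694 to 19972 FPKM with AngII, 9471 to 15955 FPKM with TRV023 and 14598 to 27733 FPKM with losartan. With TRV023 5 of 6 tested type 2 cell markers were below 0, and 1 of them, Lamp3, had an unadjusted p under 0.05 (log2 fold change -0.71, SE 0.212, edgeR adjusted p = 0.682). All TRV023 libraries of Lamp3 lay below vehicle, as was so for 5.23% of all genes tested. T and NK cell markers summed to 111 to 128 FPKM with vehicle, 116 to 151 FPKM with AngII, 92.0 to 138 FPKM with TRV023 and 61.4 to 142 FPKM with losartan. The part of these cell types in the class II values was not tested.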

How the data were processed

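Counts per gene and FPKM, as deposited by the authors, were used for 12 lung libraries (RNA by Qiagen RNeasy, sequencing by Novogene), in 1 table per drug with the same vehicle libraries. The authors aligned the reads and counted them per gene, and the deposited FPKM scale those counts to gene length and counted reads. The sources used here name no aligner, counter, build or strand setting. Scaled values and the authors' own fold changes and p-values, also deposited, were left out. Every listed gene had reads in its drug group, and a gene not listed in a table was assumed to have none there and set to 0. edgeR 4.0.16 in R 4.3.3 (filterByExpr, TMM, glmQLFit, glmQLFTest) tested each table, with Benjamini-Hochberg adjustment over all genes tested and calls at an adjusted p under 0.05. DESeq2 1.42.0 and limma 3.58.1 served as alternatives, beside other scalings, filters and leaving out each rat. The fits were tested on simulated data. Names with B, D or H after RT1- were class II and all others class I.

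The members, lists and low-level rule were chosen with earlier results of these data known. Values in full are given for genes low in some libraries, class II chains and accessory genes, abundant A and CE genes and the RT1 genes with the smallest p. Each library is a separate rat, so p-values measure the spread between rats. Depth was 16106337 to 20096877 counted reads, and the limit of 3 reads at a count of 0 covers counting error only.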

Additional observations from a re-analysis of the deposited data

How the results depend on the processing

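RT1-CE16 kept its lower value with AngII and TRV023 under every alternative run, but not always its call. RT1 genes called numbered 3 with DESeq2 for AngII and 2 for TRV023, and 0 in both with the 4 groups in a single fit. Leaving out 1 rat gave 0 to 1 with AngII (0 without Ang2_931 or Ang2_933) and 0 to 1 with TRV023 (0 without Trv_917 or Trv_918). With losartan the count was 0 except without the rats numbered in the 960s, where it was 1 of 5 genes called, the lone losartan library being assumed to vary like the others.

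Over all genes, DESeq2 called 204, 110 and 6 for AngII, TRV023 and losartan. The AngII count was 1 with library totals, with limma at a pseudocount of 1 or 0.1 FPKM and with the 4 groups in a single fit, and 0 to 3 without 1 rat. The TRV023 count was 2 with limma at 0.1 FPKM, 0 with the 4 groups in a single fit and 0 to 3 without 1 rat, and the losartan count 0 to 1 without 1 rat. The median of class I values with AngII was 0.33 to 0.59 without 1 rat, highest without Veh_923. The class II median with AngII was 0.15 to 0.35 without 1 rat and 0.14 with limma at 1 FPKM, and with losartan -0.47 to -0.11 without 1 rat and -0.78 without the 960s rats. RT1-Ha, not tested in the main losartan fit, was tested in each fit that left out 1 losartan rat. The RT1 genes low in some libraries numbered 6 of 25 with a highest library of at least 5 FPKM (5.69% of all genes), 15 with low set at under 1/5 or with a minimum of 0.1 FPKM, 9 at under 1/20, and 8 without Los_964.

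Turned directions rested on few libraries. For RT1-DMb with AngII the log2 fold change ran from -3.80 without Ang2_922 to 4.50 without Veh_924, and was -0.19 and -0.18 without Veh_923 and Veh_963. For RT1-DMb with losartan it ran from -4.35 to 0.35 without 1 rat, the latter without Veh_924, and was -4.64 without the 960s rats. With TRV023 it was -0.23 without Veh_924 and -1.72 with limma at 1 FPKM. For RT1-N2 with losartan it was -0.62 with limma at 0.1 FPKM. The cause was not tested, beyond the single high or zero libraries given above. Summing the gene models of equal length was chosen after seeing the data. No paired analysis was possible because the animal numbers differ between all groups.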
